A study of Homo sapiens with 8 samples.

Results

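The bulks are the spheroids left after small outgrowths, called buds, had been shaken off and filtered away, and their content of endocrine RNA was compared from one differentiation flask to the next. There were 5 bulk libraries among the 8 libraries of the study, 1 from each of flasks 264, 252, 274, 261 and 270, and the other 3 libraries were buds of flasks 264, 274 and 270. All came from the human embryonic stem cell line HUES8, taken at stage 5 of a stepwise differentiation, and the labels used here set the flasks apart by number alone, naming no treatment, passage or date. The flasks were ordered by the level of CHGA, the gene of the granule protein chromogranin A, and 12337 of 58233 genes reached the filter of 5 CPM (counts scaled to library size) in 3 of the 5 bulks. Of these, 62 rose along the CHGA order, 22 fell and 75 varied independently of it. A gene rose where each next flask was higher and the last at least 2-fold above the first, and it fell by the mirror rule. It varied independently where its spread beyond counting error was large and its ranks were nearly unrelated to CHGA. The genes were thus chosen by their CPM in these same 5 libraries, and the values are given as a description. Each flask gave 1 bulk library, so no spread within a flask was measured, and no statistical test between flasks was run.

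Pancreatic endocrine cells arise from epithelial progenitors that switch on the transcription factor NEUROG3 for a short time. They then lose progenitor genes such as SOX9, make peptide hormones and store them in dense-core granules built with chromogranins, prohormone convertases and a zinc transporter. The islet hormones are insulin of beta cells, glucagon of alpha cells, somatostatin of delta cells and ghrelin of epsilon cells. CDX2 is a transcription factor of the intestine, and LIN28A is an RNA-binding protein of pluripotent and early embryonic cells.

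The 250 bases upstream of the annotated start are shown for the gene that set the order, for the hormone gene that rose along it, and for a liver gene that fell along it. They are from RefSeq on GRCh38.p14, on the strand of the gene. CHGA lies on the plus strand (chr14:92922900-92923149), and GCG (chr2:162152248-162152497) and FGA (chr4:154590743-154590992) on the minus strand. Capitals mark TGACGTCA, the cAMP response element, in CHGA, CAGATG, an E-box, in GCG, and ATTAAC, which is GTTAAT on the other strand and forms part of HNF1 sites, in FGA.
CHGA: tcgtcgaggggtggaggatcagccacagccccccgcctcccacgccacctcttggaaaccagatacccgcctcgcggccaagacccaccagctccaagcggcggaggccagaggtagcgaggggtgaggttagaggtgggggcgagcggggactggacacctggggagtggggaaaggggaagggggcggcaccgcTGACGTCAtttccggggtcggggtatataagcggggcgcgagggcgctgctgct
GCG: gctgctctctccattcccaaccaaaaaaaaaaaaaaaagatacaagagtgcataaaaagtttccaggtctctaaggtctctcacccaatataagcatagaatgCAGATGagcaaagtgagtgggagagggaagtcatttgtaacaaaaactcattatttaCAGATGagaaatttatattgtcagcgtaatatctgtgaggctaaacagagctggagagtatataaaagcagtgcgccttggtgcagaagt
FGA: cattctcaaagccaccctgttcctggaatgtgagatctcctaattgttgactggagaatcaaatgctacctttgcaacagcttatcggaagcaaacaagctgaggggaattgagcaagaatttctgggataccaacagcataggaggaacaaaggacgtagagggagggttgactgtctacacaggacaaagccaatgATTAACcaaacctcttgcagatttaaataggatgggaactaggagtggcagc
Promoters were matched for 46 of the 62 rising and 17 of the 22 falling genes, and both strands were searched. TGACGTCA was found upstream of 3 rising genes (6.52%: CHGA, FAM131A and H2BC12) and of 2 falling genes (11.8%), against 2.03% of all 27305 genes with such windows. CAGATG was found upstream of 7 rising genes (15.2%) and 2 falling genes (11.8%), against 14.6% of all genes. GTTAAT was found upstream of 5 rising genes (10.9%) and 4 falling genes (23.5%), against 7.497% of all genes. A gene was counted where any of its windows held the motif, a window could hold more than 1 of these motifs, and a match of letters is not a measured binding site.

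The bulk libraries held 6083973 to 10626052 counts. Genes of ribosomal RNA took 11.6% of the counts in flask 252 and 2.92 to 6.35% in the other flasks, and mitochondrial transcripts took 3.84 to 4.66%. No pair of bulks matched within sampling noise, since the chi-square per gene was 11.6 for the closest pair. Over all filtered genes, 82% differed among the 5 libraries by more than counting error at the 95% point of chi-square. The median spread beyond counting error, a coefficient of variation (CV), was 0.144. Flask 264 stood apart: it alone gave 67.9% of the first principal component, which held 54.0% of the variance. Flask 261 gave 72.6% of the second, which held 21.6%. For this reason differences are given both between the ends of the order, flasks 270 and 264, and between flasks 270 and 252, which leaves flask 264 out.

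CHGA was at 1182, 1920, 2199, 2906 and 4190 CPM in flasks 264, 252, 274, 261 and 270, and the values of other genes are given in this order of the flasks. The span was 3.55-fold (log2 1.83, and 1.13 from flask 270 to flask 252), and no 2 flasks had overlapping Poisson intervals, which cover counting error only. The 5 libraries therefore differed in CHGA RNA by more than counting error, but in bulk samples fewer endocrine cells and less RNA per cell cannot be told apart. NEUROG3, which starts endocrine fate, was at 88.9, 190, 234, 170 and 303 CPM. It was lowest in flask 264 and highest in flask 270, but flask 261 lay below both 252 and 274, out of the CHGA order. SOX9, of progenitors and duct, was at 85.0, 56.1, 47.1, 47.0 and 53.2 CPM, so that only flask 264 stood out, on the high side. CDX2 was at 70.0, 8.18, 8.15, 8.67 and 7.39 CPM, 7.88-fold higher in flask 264 than in the next flask, and the Poisson intervals of the other 4 overlapped. LIN28A was at 53.7, 50.02, 63.0, 17.9 and 44.04 CPM and stood out in flask 261 alone, on the low side. The 5 markers thus followed different flasks: CHGA and NEUROG3 spanned the whole set, SOX9 and CDX2 parted flask 264, and LIN28A parted flask 261.

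**Figure D1:**
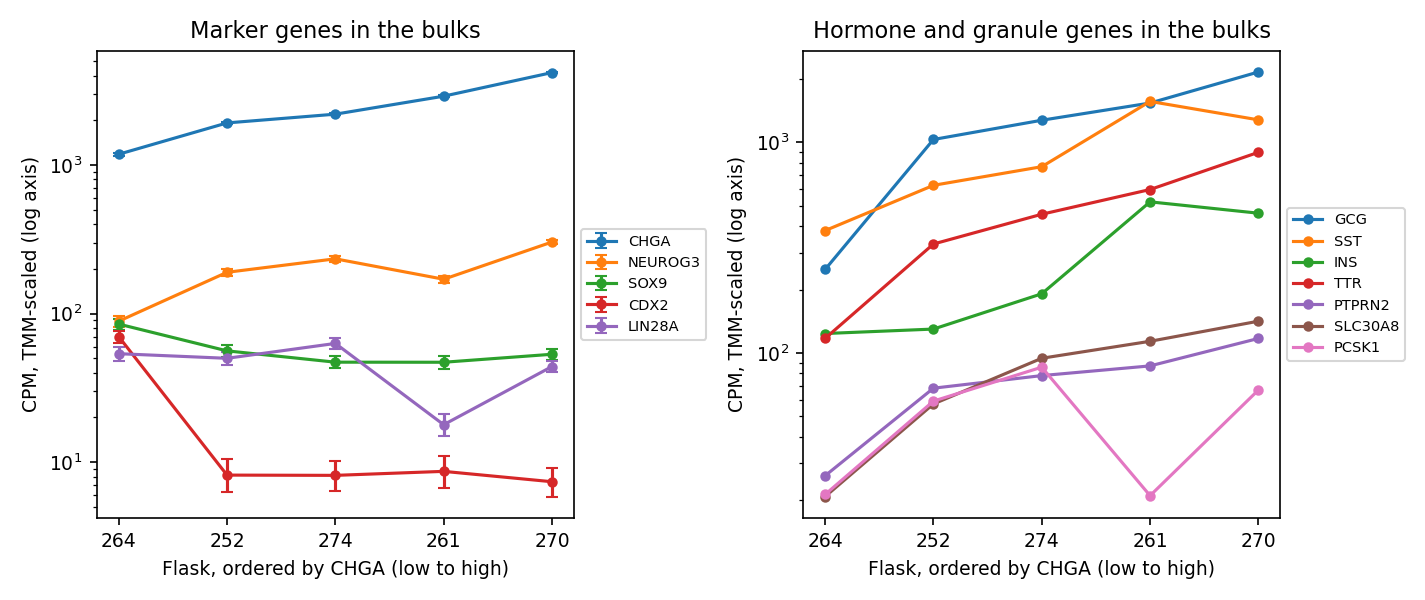
CPM on a log axis in the 5 bulks, ordered by CHGA: the 5 marker genes with 95% Poisson intervals on the left and 7 hormone, granule and alpha-cell genes on the right. CDX2 drops after flask 264, LIN28A and PCSK1 dip in flask 261, and INS and SST peak there.

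Hormone RNA was lowest in flask 264 and highest in flask 270 in sum, but the hormones did not keep one order. GCG, encoding glucagon, was at 249, 1032, 1274, 1538 and 2159 CPM and rose along the CHGA order, with its largest step between flasks 264 and 252. SST, encoding somatostatin, was at 381, 625, 767, 1565 and 1279 CPM. INS, encoding insulin, was at 124, 130, 191, 522 and 461 CPM. INS and SST were both highest in flask 261, whereas GCG was highest in flask 270. GHRL, encoding ghrelin, was at 4.03, 4.55, 7.62, 5.78 and 10.2 CPM. INS shares exons with the read-through gene INS-IGF2, so its counts could be split. PPY, IAPP and PYY, encoding pancreatic polypeptide, amylin and peptide YY, stayed under the filter at 0.323 to 3.64 CPM. The 7 hormone genes together took 0.0775% of counts in flask 264 (95% Wilson interval 0.0754 to 0.0798), 0.168% in 252, 0.229% in 274, 0.362% in 261 and 0.404% in 270 (0.4005 to 0.408). Ordered by this sum the flasks stood as they did by CHGA; without GCG, flask 261 was the highest.

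The mix of hormones also differed between the libraries beyond counting error. Of the counts of INS, GCG and SST together, GCG made up 33.0% in flask 264 (95% Wilson interval 31.7 to 34.4), 57.7% in 252, 57.1% in 274, 42.4% in 261 (41.8 to 43.0) and 55.4% in 270. INS made up 16.4% in flask 264, 7.27% in 252, 8.56% in 274, 14.4% in 261 and 11.8% in 270. Flasks 264 and 261 thus had the least glucagon RNA and the most somatostatin RNA per hormone count (50.5% and 43.2% SST, against 32.8 to 34.99% in the other 3), although they lay far apart in CHGA.

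Genes of the secretory granule other than CHGA, which set the order, were higher in its last flask than in its first: of 14 such genes listed 13 reached the filter, and each of these was at least 2-fold higher in flask 270 than in flask 264, against 6.18% of all filtered genes. Their median log2 difference was 1.94 between flasks 270 and 264 and 0.97 between flasks 270 and 252, against 0.02 and -0.01 over all genes. Of the 13, 3 rose in strict order, where 0.503% of all genes did. SLC30A8, the zinc transporter of insulin granules, was at 20.8, 57.3, 94.4, 114 and 142 CPM. PTPRN, a granule membrane protein and islet autoantigen, was at 15.3, 33.0, 40.8, 51.4 and 85.8 CPM, and its relative PTPRN2 at 26.1, 68.1, 78.1, 86.9 and 117 CPM. PTPRN had a slope of 1.32 ± 0.08 (SE of the least-squares line, 5 flasks) log2 units per log2 unit of CHGA. As a rising gene, PTPRN was chosen by its order along CHGA in these same libraries, which favours a close fit. The slope and its SE are therefore a description and do not show separately that PTPRN tracked CHGA.

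Other granule genes were out of order at flask 261. SCG5, a chaperone of prohormone convertase 2, was at 12.1, 35.5, 79.9, 50.2 and 94.9 CPM. SCG3, a granin that binds chromogranin A, was at 14.2, 52.7, 85.7, 48.9 and 104 CPM. Both were lower in flask 261 than in flask 274, although CHGA was higher there. PCSK1, a convertase that processes proinsulin, went furthest: at 21.3, 59.1, 85.6, 21.0 and 66.7 CPM, flask 261 was as low as flask 264, and the gene was counted as independent of the order. SCG5 overlaps a read-through gene and an antisense gene, so its counts are less certain. Ordered by the sum of the 14 listed granule genes other than CHGA, flasks 261 and 274 changed places.

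Genes of exocytosis and electrical excitability were also mostly higher in flask 270 than in flask 264, by less than the granule genes. By summed level they ordered the flasks 264, 261, 252, 274 and 270, unlike CHGA and unlike the other granule genes. Of the 18 that reached the filter, 12 were at least 2-fold higher in flask 270 than in 264, against 6.18% of all genes, with a median log2 difference of 1.17 (0.67 between flasks 270 and 252). ABCC8, the sulfonylurea receptor subunit of the beta-cell potassium channel, rose at 24.4, 27.8, 40.9, 41.1 and 52.9 CPM. RIMS2, a scaffold of vesicle release sites, was at 8.39, 33.4, 44.5, 20.5 and 46.2 CPM, and CPLX2, a complexin that controls vesicle fusion, at 5.16, 9.09, 11.3, 6.83 and 22.4 CPM. Both dipped in flask 261. CACNA1H, a calcium channel subunit, went the other way, at 310, 203, 158, 207 and 185 CPM.

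Genes of endocrine commitment were lowest in flask 264 in 15 of the 18 filtered members, against 33.3% of all genes, and 11 were at least 2-fold higher in flask 270 than in flask 264. None rose in strict order, and flask 261 lay below flask 274 in 15 of the 18. INSM1, a zinc-finger factor downstream of NEUROG3, was at 133, 425, 551, 283 and 628 CPM. NEUROD1 was at 58.2, 130, 151, 95.5 and 174 CPM, and NKX2-2 at 11.1, 46.6, 72.5, 33.5 and 71.1 CPM. All 3 were lower in flask 261 than in flasks 252, 274 and 270. ST18, a zinc-finger factor of the MYT1 family, was at 3.07, 14.2, 22.1, 7.88 and 25.5 CPM, with the same dip. NEUROG3 and NKX2-2 overlap genes on the opposite strand, and counts could include those unless strand was used.

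Islet transcription factors gave the same order as the commitment genes: 264, 261, 252, 274 and 270 by summed level. Of 12 filtered members 8 were at least 2-fold higher in flask 270 than in 264, against 6.18% of all genes, with a median log2 difference of 1.93 (0.83 between flasks 270 and 252). ISL1, of all islet endocrine cells, was at 34.8, 73.1, 108, 75.4 and 147 CPM. IRX1, which is active in alpha cells, was at 2.90, 5.72, 10.8, 10.6 and 19.4 CPM. The 4 exceptions to the 2-fold difference are also expressed outside endocrine cells. PDX1, of pancreatic epithelium and beta cells, was at 51.3, 64.2, 46.4, 41.0 and 52.7 CPM. NKX6-1, of progenitors and beta cells, was at 119, 86.8, 75.9, 37.5 and 78.6 CPM, and HHEX was highest in flask 264 (23.4 CPM) and lowest in 261 (6.96 CPM). MNX1 was highest in flask 261, at 94.2 CPM against 45.1 to 65.6 CPM in the other flasks.

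Neuron genes, many of which endocrine cells also use, were at least 2-fold higher in flask 270 than in 264 in 7 of 10 filtered members, against 6.18% of all genes. STMN2, a regulator of microtubules, was at 25.5, 64.2, 115, 85.4 and 183 CPM, and ELAVL3, a neuronal RNA-binding protein, at 3.07, 7.92, 9.84, 8.28 and 20.1 CPM. NEFL and NEFM, the neurofilament genes, did not share this, with NEFM at 87.1, 38.6, 67.6, 69.9 and 117 CPM. Of 10 markers of neural crest and glia 9 stayed at 0 to 4.03 CPM, with SOX10 at 0 to 0.161 CPM. The exception was ERBB3, a neuregulin receptor that epithelia also make, at 265, 235, 175, 226 and 195 CPM. Of 6 filtered genes of enterochromaffin cells, the serotonin-making endocrine cells of the gut, 4 were at least 2-fold higher in flask 270 than in 264 and 1, the glutathione transferase gene GSTA1, at least 2-fold lower, against 6.18% and 2.59% of all genes. DDC, the decarboxylase of the last step to serotonin and dopamine, was at 48.7, 84.6, 138, 67.4 and 152 CPM. FEV, a transcription factor of serotonin-making cells, was at 14.4, 31.0, 61.8, 31.7 and 61.4 CPM. TPH1, which makes the serotonin precursor, was at 5.97, 11.2, 14.8, 2.76 and 11.5 CPM and was counted as independent of the order, and SLC18A1, a vesicular monoamine transporter, was at 4.03, 12.2, 21.2, 9.20 and 21.8 CPM.

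The 62 rising genes (0.503% of those filtered) all code for proteins, and their log2 difference between flasks 270 and 264 ran from 1.02 to 3.61 with a median of 1.69. For 41 of them the largest step lay between flasks 264 and 252, and without flask 264 the median difference from 270 to 252 was 0.91, with 25 genes still 2-fold apart. Among all genes 1.96% were, but the rule had already fixed that the 62 were higher in flask 270, so the counts are not compared. With flask 264 left out 50 genes rose, with 252 left out 87, with 270 left out 98, with 274 left out 225 and with 261 left out 483. A strict order of fewer flasks is easier to meet, and without flask 264 or 270 the end flasks change. These numbers are therefore not set against the 62. Besides hormone and granule genes, the steepest were TTR, SOX3, PGM5, QPCT, ACVR1C, SLC7A14 and DNER. TTR, encoding the thyroxine carrier transthyretin, which alpha cells as well as liver make, was at 117, 329, 456, 597 and 897 CPM. SOX3, a SOXB1 transcription factor, was at 1.13, 9.87, 11.5, 14.2 and 16.4 CPM, so that most of its difference was the step out of flask 264. QPCT, an enzyme that turns N-terminal glutamine of peptides into pyroglutamate, was at 5.32, 12.3, 18.0, 26.7 and 29.7 CPM, and ACVR1C, the activin-family receptor ALK7, at 28.1, 82.6, 111, 112 and 168 CPM. DNER, a transmembrane ligand of Notch, was at 1.77, 3.38, 6.99, 7.88 and 9.76 CPM, PGM5 reached 8.11 CPM and SLC7A14 24.3 CPM in flask 270.

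Several receptors were among the 62, and these were picked out after their values were seen. GIPR, the receptor of the incretin GIP, was at 3.87, 6.24, 7.73, 8.67 and 13.2 CPM, and GPR119, a lipid receptor of islet and gut endocrine cells, at 4.03, 9.35, 10.5, 11.4 and 14.7 CPM. RET, the receptor of the GDNF family, was at 9.52, 20.3, 22.1, 28.6 and 30.8 CPM. The list was not limited to endocrine genes, since KIF20A, a kinesin of cell division, rose at 7.10, 16.0, 17.6, 18.1 and 21.2 CPM. Just inside the 2-fold limit was PTTG1 (log2 difference 1.02) and just outside FAM222A (0.97).

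The strict CHGA order was not the commonest order among genes that parted the ends. Of the 763 genes at least 2-fold higher in flask 270 than in flask 264, 232 (30.4%) stood in the order 264, 261, 252, 274, 270 and 150 (19.7%) in the order 264, 252, 261, 274, 270, while 62 (8.13%) followed CHGA. Over all filtered genes these orders were held by 3.05%, 2.20% and 1.18%. The choice of genes fixed the places of flasks 264 and 270 relative to each other, but not that of flask 261. Flask 261 was the second lowest in 383 of the 763 genes and above flask 274 in 19.4% of them, against 49.2% of all genes. By list, flask 261 was above flask 274 in 3 of 4 hormone genes, 5 of 13 granule genes other than CHGA, 4 of 18 genes of exocytosis, 3 of 18 commitment genes and 1 of 12 islet transcription factors. Flask 261 therefore ranked high by hormones and CHGA, and low by commitment genes and islet transcription factors.

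**Figure D2:**
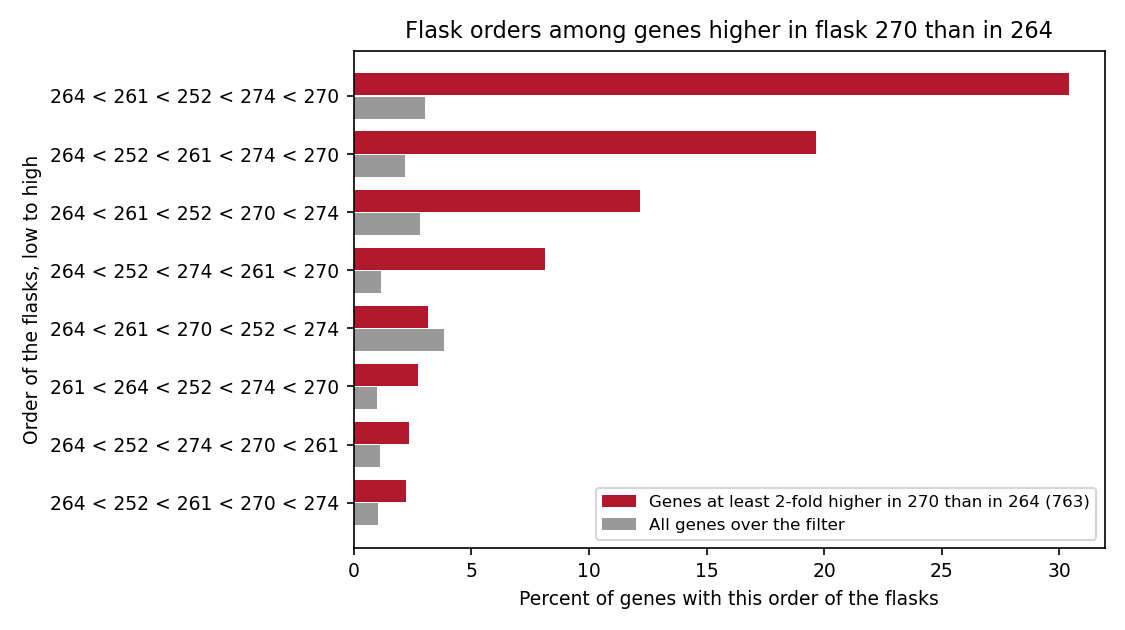
Percent of genes with each order of the flasks, for the 763 genes at least 2-fold higher in flask 270 than in flask 264 (red) and for all 12337 filtered genes (grey). The 8 commonest orders of the 763 are drawn, and the order with flask 261 just above 264 leads with 30.4%.

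Flask 261 differed in other gene groups as well. Ribosomal protein genes were highest there in 29 of 30 members, against 20.9% of all genes, and RPLP0 was at 1255, 1137, 1396, 1832 and 1250 CPM. Transcripts of the mitochondrial genome were highest there in 10 of 13. Immediate early and heat shock genes were lowest there in 6 of 13, against 16.2% of all genes, with FOSB at 30.3, 48.7, 111, 5.39 and 23.1 CPM. YAP and TEAD genes were lowest there in 9 of 14, with ANKRD1, a YAP target, at 28.7, 12.7, 11.4, 2.63 and 5.65 CPM. This list also ran against CHGA, with a median rank correlation of -0.75 against 0.1 over all genes. Short transcripts were read relatively more in this library: against the median of the other flasks, the shorter genes (median exon length 2851 bases) were 0.14 log2 units higher and the longer ones (10254 bases) 0.09 log2 units lower (-0.09). In the other 4 flasks these 2 values lay between -0.07 and 0.08. Library composition and cell content cannot be told apart here, and the part of the length difference in the flask's place was not tested. The genes at least 2-fold higher in flask 261 than in any other flask numbered 10 (0.0811%), led by DPP4, a peptidase that cleaves incretins, at 5.16, 5.98, 6.67, 20.8 and 6.93 CPM. NKX6-2, a homeobox gene close to NKX6-1, was at 32.3, 27.2, 26.4, 70.7 and 31.2 CPM, and PDE11A-AS1, which overlaps PDE11A on the opposite strand, reached 23.9 CPM. Of 5 filtered genes of intestine and stomach, 3 were highest in flask 261, among them SOX2 (41.6, 61.6, 57.4, 93.8 and 51.0 CPM) and TFF3, a mucosal trefoil peptide (4.68, 7.28, 6.46, 20.5 and 9.48 CPM).

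The 22 falling genes (0.178% of those filtered) had log2 differences of -2.78 to -1.0003 between flasks 270 and 264, with a median of -1.24, and 13 had their largest step between flasks 264 and 252. Between flasks 270 and 252, 4 of them were still 2-fold apart. Among all genes 0.624% were, and here too the rule had fixed the direction, so the counts are not compared. Leaving out 1 flask gave 14 falling genes without 264, and 62, 99, 74 and 85 without 252, 261, 270 and 274. As for rising genes, the rule is easier to meet with fewer flasks, so these numbers are not set against the 22. SLITRK6, a transmembrane protein of the SLITRK family, was at 66.3, 28.6, 24.7, 22.7 and 9.48 CPM. FGA, encoding the fibrinogen alpha chain of liver, was at 82.6, 34.0, 27.2, 17.0 and 16.0 CPM. CDH6, a cadherin, was at 407, 176, 159, 132 and 129 CPM, and FSTL4, a follistatin-like protein, at 198, 79.2, 62.0, 58.7 and 49.4 CPM. FGA, CDH6 and FSTL4 fell mostly by the step out of flask 264, whereas SLITRK6 dropped at both ends of the order. A more even fall was seen for RESF1, at 489, 371, 313, 305 and 195 CPM, RAB27B, a small GTPase of exocytosis, at 71.1, 63.7, 42.8, 39.4 and 29.6 CPM, and CCDC68, at 15.2, 12.6, 9.10, 7.23 and 4.92 CPM. ADGRL3, an adhesion receptor, was at 44.6 CPM in flask 270 and 131 CPM in flask 264. In these flasks TUBB6, a beta-tubulin, was at 3.92 CPM (270) and 14.7 CPM (264), and HSPB8, a small heat shock protein, at 6.47 CPM (270) and 18.9 CPM (264). KLF9 and GLI3, transcription factors of glucocorticoid and Hedgehog signalling that were picked out after their values were seen, had 60.8, 46.8, 39.4, 35.6 and 26.6 CPM and 44.4, 35.6, 30.8, 28.6 and 18.9 CPM. PLEKHM3 lay just inside the limit (-1.0003) and THEM4 just outside it (-0.95).

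Progenitor genes did not fall together as endocrine genes increased. The 18 filtered progenitor genes had a median log2 difference of -0.13 between flasks 270 and 264, with 2 at least 2-fold higher and 2 at least 2-fold lower, against 6.18% and 2.59% of all genes. Of the 18, 8 were highest in flask 264, against 25.7% of all genes, and 6 in flask 270. Flask 261 was the lowest in 7 of them, against 16.2% of all genes. FOXA1, a factor of gut-tube endoderm, was at 366, 239, 185, 263 and 176 CPM. PTF1A, of early and acinar pancreas, was at 6.29, 9.61, 13.3, 4.21 and 17.9 CPM, and PROX1, a homeobox factor of pancreatic progenitors, at 52.8, 78.6, 111, 48.5 and 122 CPM. Those last 2 were lowest in flask 261 and highest in flask 270.

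Duct genes, YAP and TEAD genes and genes of TGF-beta and BMP signalling were instead mostly highest in flask 264. Of 6 filtered duct genes 4 were at least 2-fold lower in flask 270 than in flask 264, against 2.59% of all genes, led by SLC4A4, a bicarbonate cotransporter, at 455, 231, 174, 135 and 158 CPM. KRT19, the keratin of duct cells, did not share this, at 526, 493, 491, 534 and 523 CPM. Of 14 YAP and TEAD genes 11 were highest in flask 264, against 25.7% of all genes, with CCN2, a secreted YAP target, at 12.9, 7.92, 9.95, 6.04 and 2.46 CPM. In the TGF-beta and BMP list 6 of 9 were highest there. ID1 and ID3, inhibitors of bHLH factors that BMP signalling induces, were at 435, 125, 119, 70.7 and 95.3 CPM and at 160, 60.2, 47.3, 37.6 and 53.9 CPM. NRARP, a Notch target that limits the pathway, was at 46.1, 18.2, 12.4, 25.9 and 13.04 CPM. ID1 and ID3 parted flask 264 from the other 4. ID1, SLC4A4 and CCN2, but not ID3, were also lower in flasks 261 and 270 than in flasks 252 and 274.

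Flask 264 held most of the genes in which 1 bulk stood apart, with 82 genes at least 2-fold above the nearest other flask (0.665%) and 228 at least 2-fold below it (1.85%). Above and below, the counts were 5 (0.0405%) and 9 (0.073%) in flask 252, 4 (0.0324%) and 7 (0.0567%) in 274, 10 (0.0811%) and 31 (0.251%) in 261, and 9 (0.073%) and 10 (0.0811%) in 270. ITGA4, the alpha 4 integrin subunit, was at 124, 14.8, 7.09, 8.41 and 3.92 CPM, and FGB, the fibrinogen beta chain, at 147, 20.7, 15.5, 18.1 and 5.197 CPM. POSTN, a matrix protein of mesenchyme, was at 52.1, 6.89, 11.9, 6.04 and 5.38 CPM. Of the 15 listed mesenchymal genes 5 reached the filter, POSTN among them, while PRRX1 and TWIST1 stayed under 1 CPM in every flask. Of the 5, 3 were highest in flask 264, against 25.7% of all genes, 1 in 274 and 1 in 270. At least 2-fold lower in flask 270 than in 264 were 3 of the 5, against 2.59% of all genes. COL1A1, a collagen chain, was at 26.5, 11.6, 11.7, 16.6 and 8.94 CPM. The summed share of the mesenchyme list was 0.0216% of counts in both flasks 264 and 274, against 0.00946 to 0.0172% in the others, and its part in the other differences of flask 264 was not tested. For liver, 5 of 7 filtered genes were highest in flask 264, FGA and FGB among them, against 25.7% of all genes. Between flasks 270 and 264, 3 of the 7 were at least 2-fold lower in 270 and 1 at least 2-fold higher, against 2.59% and 6.18%. ALB, the defining serum protein, was at 1.06 to 5.26 CPM in all 5 flasks.

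**Figure D3:**
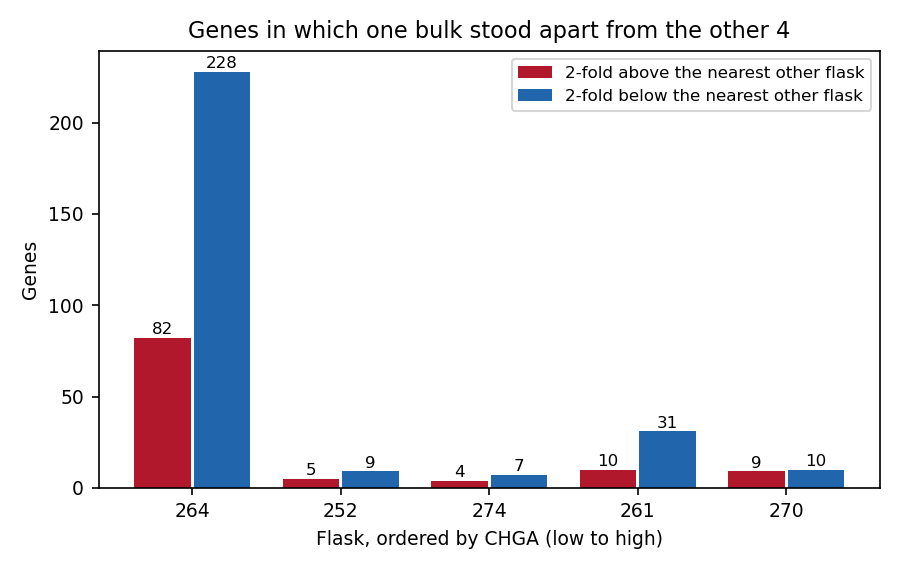
Number of genes, of 12337, in which 1 bulk was at least 2-fold above (red) or below (blue) the nearest of the other 4 bulks, by flask in CHGA order. Flask 264 has 82 and 228 such genes, and the next highest counts are 10 and 31 in flask 261.

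**Figure D4:**
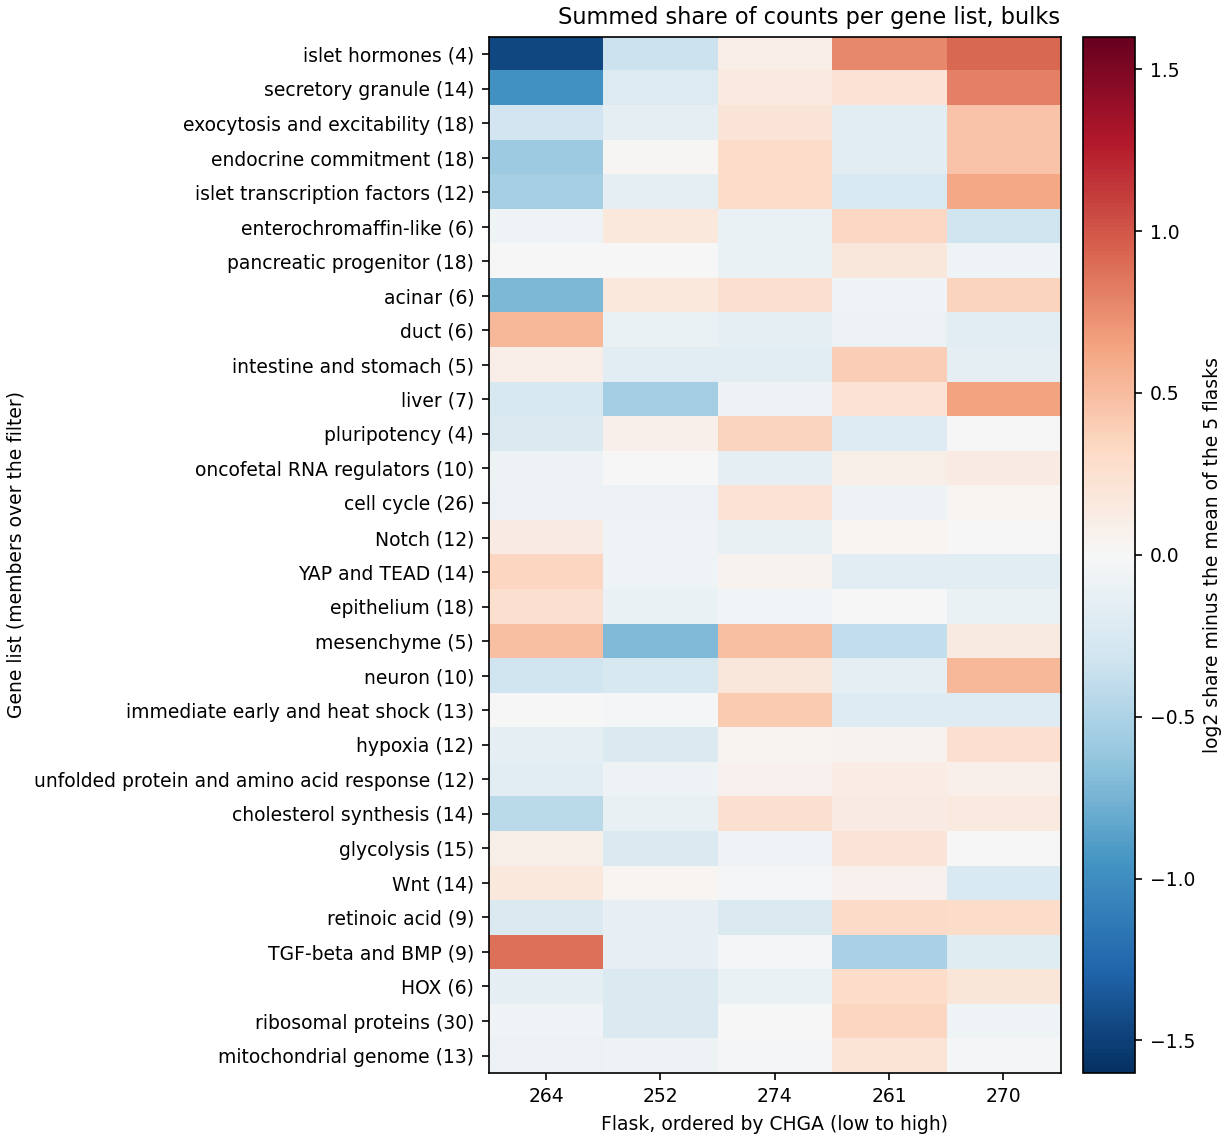
Summed share of counts of each gene list with at least 3 filtered members, as log2 difference from the mean of the 5 flasks, with flasks from left to right in CHGA order. Hormone and granule lists darken from blue to red, while commitment genes and islet transcription factors are blue again in flask 261, and TGF-beta and BMP genes are red in flask 264.

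The 75 genes that varied independently (0.608% of those filtered) had a CV beyond counting error of at least 0.5 and a rank correlation with CHGA within 0.3 of 0. With each flask left out in turn such genes numbered 22 (without 264) to 41 (without 270), with 34, 25 and 23 without 252, 261 and 274. Fewer flasks leave the rank correlation fewer possible values, and the limit of 0.3 is then harder to meet. These numbers are therefore not set against the 75. Flask 264 was the highest or lowest in 45 of the 75 genes and flask 261 in 35. Flask 264 was the highest in 26 and the lowest in 19, against 25.7% and 33.3% of all genes. Flask 261 was the highest in 19 and the lowest in 16, against 20.9% and 16.2% of all genes. HABP2, a plasma protease made by liver, was at 61.6, 6.37, 9.21, 12.7 and 8.57 CPM, and SCTR, the secretin receptor, found on duct cells, at 18.4, 5.85, 3.18, 3.81 and 6.20 CPM. In both, flask 264 was the high one. AMBP, a liver gene for a serum protease inhibitor, was at 135, 67.3, 48.3, 235 and 57.5 CPM, SULT1A1, a sulfotransferase, at 11.8, 6.37, 3.39, 18.7 and 3.65 CPM, and COLEC12, a scavenger receptor, at 4.36, 15.6, 12.1, 33.5 and 11.6 CPM. Those 3 were highest in flask 261, as were 2 stomach genes picked out after their values were seen: CLDN18, a claudin, at 133, 259, 252, 536 and 173 CPM, and CTSE, encoding cathepsin E, at 19.5, 53.0, 45.7, 94.5 and 30.5 CPM. PRSS1 and PRSS2, near-identical trypsinogen genes whose reads may be split, were also highest there, with PRSS2 at 7.90, 50.1, 46.7, 77.5 and 32.0 CPM. MMRN1, encoding multimerin, peaked at 14.6 CPM in flask 274, and SNCAIP, a partner of synuclein, at 61.8 CPM in flask 264. SNURF, RAB4B-EGLN2 and RAB43 share exons with neighbouring or read-through genes, and their spread may lie in how reads were split: RAB4B-EGLN2, for example, was at 0.968, 11.0, 0.318, 9.46 and 10.3 CPM.

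The remaining flasks each had few genes of their own. In flask 252, SNORD3A, a small nucleolar RNA, was at 757 CPM against 93.0 to 249 CPM in the others, and 7SK, a small nuclear RNA, at 170 CPM against 36.7 to 66.9 CPM. Neither is polyadenylated, and ribosomal RNA was also highest in this library. CRABP1, a retinoic acid binding protein, was at 4.52, 15.2, 6.99, 5.26 and 5.197 CPM. In flask 274 FOSB was 111 CPM, COL1A2, a chain of type I collagen, was at 13.6, 7.66, 28.4, 9.72 and 12.7 CPM, and COL5A2 had 15.3 CPM against 5.39 to 6.78 CPM elsewhere. Cell-cycle genes were highest in flask 274 in 17 of 26, against 19.7% of all genes. They were lowest in flask 264 in 17 of 26, against 33.3% of all genes, with TOP2A at 64.4, 110, 133, 91.7 and 105 CPM. Of 14 genes of cholesterol synthesis 8 were highest in flask 274, with IDI1 at 20.2, 42.4, 70.6, 40.7 and 45.5 CPM. Flask 270, the highest in CHGA, stood apart for NSG2, a protein of neuronal endosomes, at 2.58, 5.98, 10.8, 8.67 and 27.6 CPM, for STMN4 at 3.39, 5.33, 8.89, 4.99 and 18.8 CPM, and for ISL1-DT, a transcript beside ISL1, at 15.4 CPM against 2.42 to 7.20 CPM.

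Several gene groups varied little along the order. Glycolysis genes had a median log2 difference of -0.02 between flasks 270 and 264, hypoxia genes 0.27, genes of the unfolded protein response 0.21, Wnt genes -0.19 and Notch genes -0.16. SLC2A1, the glucose transporter GLUT1, was an exception in the hypoxia list, at 110, 157, 241, 184 and 298 CPM. WNT4, a ligand of the Wnt family, was one in the Wnt list, at 3.07, 4.68, 8.47, 7.75 and 15.0 CPM. ALDH1A1, which makes retinoic acid, was at 188, 295, 251, 400 and 474 CPM. DLK1, an imprinted gene of growth and differentiation, was at 629, 708, 767, 514 and 1300 CPM.

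The 3 flasks that gave both bulks and buds did not keep the bulk order in their buds. With all 8 libraries scaled together, CHGA was at 1152, 2279 and 4315 CPM in the bulks of flasks 264, 274 and 270, and at 10667, 5614 and 7525 CPM in the buds of the same flasks. Flask 264 was thus the lowest of the 3 in bulks and the highest in buds. GCG was at 243, 1320 and 2223 CPM in bulks and at 1325, 768 and 657 CPM in buds, the opposite order. INS was at 121, 198 and 475 CPM in bulks and at 773, 278 and 352 CPM in buds. SST was at 371, 794 and 1317 CPM in bulks and at 8241, 4315 and 4720 CPM in buds. TTR and SLC30A8 were likewise highest in the buds of flask 264, at 1011 and 317 CPM. Of the 62 rising genes, 57 other than CHGA reached the filter in buds; 8 of these (14.0%) kept the order of the 3 flasks there, against 16.6% of all genes, and 19 (33.3%) were higher in flask 270 than in 264, against 55.1%. Falling genes gave other values: of 14 that reached the filter in buds 5 (35.7%) kept their order, against 12.7% of all genes, and 11 (78.6%) were lower in flask 270 than in 264, against 44.9%. ID1 was one gene with the same order in both, at 423, 124 and 98.1 CPM in bulks and 518, 255 and 170 CPM in buds of flasks 264, 274 and 270. The spread of genes over these 3 flasks was 0.139 in bulks and 0.127 in buds (median CV beyond counting error, 11668 genes), and 4.33% of genes in bulks and 1.71% in buds had a CV of at least 0.5. With 3 flasks there could be no test of these orders.

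**Figure D5:**
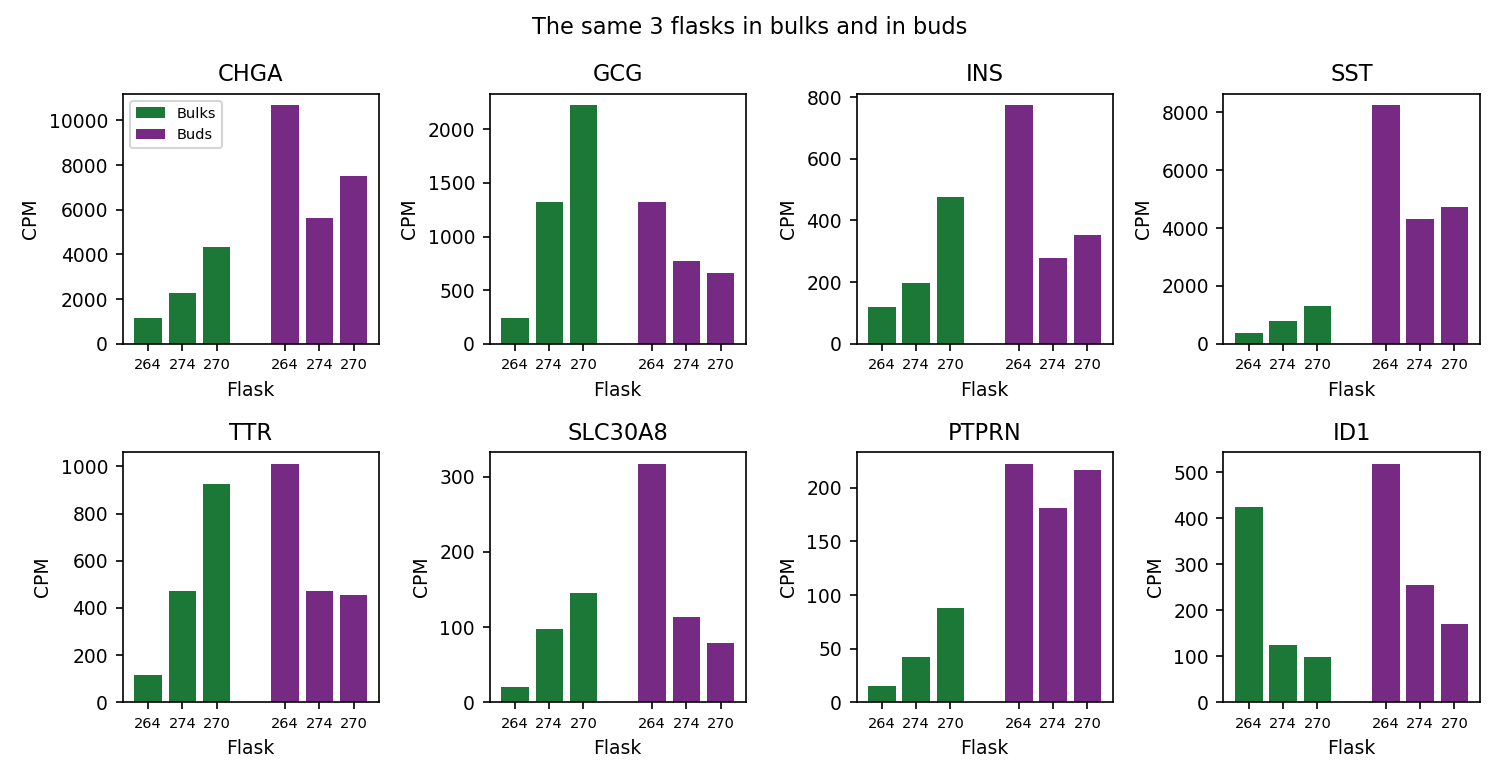
CPM of 8 genes in the bulks (green) and buds (purple) of flasks 264, 274 and 270, scaled together, 1 library a bar. CHGA and the hormone genes increase from flask 264 to 270 in bulks and are highest in flask 264 in buds, and ID1 is highest in flask 264 in both.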

How the data were processed

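RNA was measured in 5 bulks of HUES8 spheroids, with 3 buds set beside them. Per the labels' protocols, PrepX kits were used to select polyadenylated RNA and make the libraries, which were read from both ends on a NextSeq. The authors deposited expected counts per Ensembl gene, estimated with RSEM from STAR alignments to GRCh38 per the submitters' processing notes. Versions, annotation release and strand setting were not given in the sources used here. Of the deposited expected counts 11.2% were not whole, since RSEM divides shared reads, and values were rounded. Identifiers were matched to GENCODE release 44 for 57392 of 58233 genes (98.6%). Of 105 genes chosen by the naming rule, 17 share exons with another gene on their own strand and 30 with a gene on the opposite strand alone, so their counts are less certain.

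Library sizes were scaled with TMM (edgeR 4.0.16, R 4.3.3), and log2 CPM used a prior count of 2. The filter was 5 CPM in 3 of the 5 bulks. A gene rose or fell when all 5 flasks stood in strict CHGA order and the ends differed at least 2-fold. It varied independently when its CV beyond Poisson error was at least 0.5 and its rank correlation with CHGA was within 0.3 of 0. These rules were run on simulated counts, with evenly spaced changes well above the 2-fold limit and only counting error in unchanged genes. That run cannot show how the rules act near the limit or at the spread of the real bulks. All bulks are 1 cell line and 1 library per flask, so everything is a description without p-values, and intervals cover counting error only.

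Genes named were the 5 markers, the 2 largest end differences in each list with at least 3 filtered members, the 10 steepest rising and falling genes, the 10 most variable independent genes, and the 3 largest gaps above the other flasks per flask, besides others that illustrate a list or are said to have been picked out after their values were seen. Some genes that the rule chose are not reported here. The members and the 32 gene lists were chosen with earlier results of these data known. Other scalings, filters, folds, orders and flasks left out were tried as alternatives, and leaving out 3 ribosomal RNA genes was added after seeing the data.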

Additional observations from a re-analysis of the deposited data

Results flagged for a closer look

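Of 142 values examined over the 5 bulks (named genes, list sums and library measures), 16 had 1 flask far from the others, by the gap to the nearest flask as a share of the whole range against Dixon's limit of 0.71. Chance gives about 1 in 20 for values not chosen by size. Many of these genes were named for a large gap or end difference, so that rate does not hold for them and the flags are a description. Flask 264 was the far one in 10, flask 261 in 4, and flasks 252 and 274 in 1 each. Flask 264 was far above the others for CDX2 (gap of 0.930 of the range), CRABP2 (0.773) and CDH6 (0.727), and far below them for AURKA (0.941), SOX3 (0.800), MT-ATP8 (0.777) and KIF20A (0.741). Its summed shares of counts were far above for duct genes (0.918), TGF-beta and BMP genes (0.749) and epithelial genes (0.718). Flask 261 was far below for LIN28A (0.715) and far above for NKX6-2 (0.796), DPP4 (0.792) and the summed share of mitochondrial transcripts (0.781). Flask 274 was far above for COL5A2 (0.784). In flask 252 the 50 most abundant genes took a far larger share of counts (0.749), at 24.0% against 17.1 to 18.8% in the other bulks, and ribosomal RNA was highest in the same library.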

How the results depend on the processing

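No paired analysis was possible because the bulks form 1 group and no test between groups was made. Under RLE, upper-quartile and unscaled library sizes the CHGA order was the same, and the median log2 difference of all genes between flasks 270 and 264 moved by -0.08 (upper quartile) to 0.02 (unscaled). Without scaling 13 genes fell. Of 840 values of named genes under 8 settings, 126 moved. No value of a rising or falling gene changed sign, but the strict order and the 2-fold limit had all but fixed this in advance. It therefore says nothing on how stable those genes are. Changes of sign in the other named genes were not counted. With a filter of 1 CPM, 113 genes rose, 49 fell, 237 varied independently, and 240 and 677 stood apart above and below. With no filter but 10 counts in all these were 147, 74, 835, 558 and 1181, and with 20 CPM 29, 14, 18, 34 and 122. With 1 swap of neighbours allowed 249 rose and 88 fell, with a 1.5-fold limit 100 and 47, and with a 4-fold limit 16 and 2. Ordered by the other granule genes, 150 rose, none of them shared with the 62, since the 2 strict orders exclude each other. An excess CV of at least 0.3 or 1 gave 416 or 2 independent genes, and a rank limit of 0.5 gave 132. A 4-fold gap left 8 genes apart above and 28 below.

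Without 1 flask, rising genes numbered 50 (without flask 264, 25 of the 62 among them) to 483 (without 261), with 225 without 274, 98 without 270 and 87 without 252. Falling genes numbered 14 (without 264) to 99 (without 261), with 62, 74 and 85 without 252, 270 and 274. Independent genes numbered 22 (without 264) to 41 (without 270), with 34, 25 and 23 without 252, 261 and 274. The log2 range of CHGA was 1.13 without flask 264 and up to 1.85 without others, that of NEUROG3 0.83 to 1.79, SOX9 0.25 to 0.85, CDX2 0.23 to 3.20 and LIN28A 0.50 to 1.81. For the numbers of genes, fewer flasks make a strict order easier to meet and the rank limit harder. Without flask 264 or 270 the 2-fold rule also uses another end flask. Other causes of these moves were not tested. Without its most abundant gene, the log2 range of a list's summed share was 1.75 for enterochromaffin genes, 0.12 for progenitor, 2.11 for acinar, 1.20 for duct, 0.30 for pluripotency, 0.54 for oncofetal, 0.13 for Notch, 1.38 for neural crest and glia, 0.92 for immediate early and 0.30 for hypoxia genes. Genes near 5 CPM rest on about 31 to 55 counts a library.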

Other observations

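A further 957 genes had 5 CPM in only 1 or 2 of the bulks and so missed the filter, and 17 of them reached 10 CPM and more than 5 times the median of the flasks. The genes below were picked out after their values were seen. H19, an imprinted noncoding RNA of fetal tissue, was at 58.2 and 66.1 CPM in flasks 252 and 261 and at 0.318 to 0.484 CPM in flasks 264, 274 and 270. In the buds of those last 3 flasks it was at 0 to 0.133 CPM. Its neighbour IGF2, which is imprinted in the opposite direction, was at 3883 and 4225 CPM in flasks 252 and 261 and at 2865 to 3458 CPM in the other 3. Flasks 252 and 261 are not neighbours in the CHGA order.

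CFTR, the chloride channel of duct cells, was at 16.8 CPM in flask 264 and at 0.456 to 0.788 CPM in the other bulks, beside the high duct genes of that flask. SULT1E1, an estrogen sulfotransferase, was at 38.6 CPM in flask 264 and at 0.729 to 6.31 CPM elsewhere. AFP, a fetal liver and yolk sac protein, was at 24.0 CPM in flask 264 and 33.0 CPM in flask 261, against 1.43 to 1.91 CPM in the other 3. COL3A1, a collagen of mesenchyme, was at 38.8 CPM in flask 274, at 12.4 CPM in 261 and at 0.0912 to 4.84 CPM in the others, and in buds at 30.0, 66.6 and 1.77 CPM in flasks 264, 274 and 270. Its order was thus the same in bulks and buds, with flask 274 highest and 270 lowest.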
